A study of Cavia porcellus with 10 samples.

Results

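Protease inhibitors and kallikreins of the guinea pig cervix were followed across 3 reproductive stages. The group holds serpins, SPINK and WFDC inhibitors, 2 cystatins and the kallikreins, which are serine proteases. A gene belonged to it if its name in the deposited table starts with SERPIN, SPINK, WFDC or KLK, or if it is SLPI, CST3, CST6, A1AS_CAVPO or A1AF_CAVPO. SERPINH1 and SERPING1 were left out by the rule. Names that end in _CAVPO are guinea pig protein names. PI3 and A2M, which the rule also lists, matched no row and were not analysed here. The rule found 46 of the 25028 genes, namely 20 serpins, 9 WFDC genes with SLPI, 8 kallikreins, 7 SPINK genes and 2 cystatins.

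The animals were Hartley guinea pigs without genetic change or treatment. Non-pregnant females (NP, n = 3) were taken in estrus, the day after the vaginal membrane had opened. Mid-pregnant females (MT, n = 3) were at 43.6 ± 0.5 days of gestation and late pregnant females (LT, n = 4), not in labor, at 65.2 ± 1.2 days (SD), as estimated from the fetuses. The ages of the females are not given in the sources used here. Each library came from the vaginal portion of the cervix of 1 animal, chosen to limit uterine muscle. That tissue is a mixture of epithelium, stroma, muscle and blood cells. The tissue was checked by the receptor genes ESR1 and PGR, the matrix gene COL1A1 and the muscle gene DES, which were all tested. KRT8 and KRT18 of the same list matched no row. The check does not tell cervix from uterine muscle.

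Levels are given in TPM, the share of a gene among all transcripts after correction for length, scaled to a fixed total. Between 18730665 and 27881572 reads per animal were counted on genes. A gene was tested if its mean reached 3 TPM in at least 1 stage, which held for 12645 genes. Changes were fitted with limma on log2(TPM + 1), in 1 fit over the 10 animals, and a gene was called at an adjusted P under 0.05 over all genes tested. A log2 fold change on this scale understates the change of low genes, so ratios of stage means in TPM are given beside it where reads allow. Over all genes tested the median log2 fold change stood at -0.14 (NP to MT), -0.16 (MT to LT) and -0.28 (NP to LT), and member values are given without correction for this shift. In whole tissue, fewer cells of a type and less RNA per cell cannot be told apart.

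Serpins are trapping inhibitors, most of which are cleaved by a serine protease and then hold it in a covalent complex. SPINK proteins carry Kazal domains and WFDC proteins carry whey acidic protein domains. Those of them that act as inhibitors block serine proteases by filling the active site. Cystatins inhibit cysteine proteases such as the cathepsins and legumain. Kallikreins include KLK1, which releases kinins from kininogen, and proteases of squamous epithelium that take part in the shedding of surface cells and are held in check by SPINK5 and SPINK6. In the cervix several of them are known from mucus and from the stratified epithelium that faces the vagina.

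NP replicate 1 stood apart from the other NP animals. Its WFDC2 level was 0.0891 times the mean of NP replicates 2 and 3. Its WFDC5 was 10.2 times that mean, SPINK7 6.71 times, KLK8 5.32 times, SPINK5 4.92 times, KLK10 4.83 times, WFDC1 2.62 times, SPINK6 2.36 times and SLPI 2.07 times. A list of squamous epithelium markers (18 genes, 11 with a row) summed to 4826 TPM in this animal, against 1656 and 1411 TPM in the other two. A list of mucus-secreting epithelium markers (15 genes, 11 with a row) summed to 395 TPM in it, against 731 and 641 TPM. A list of smooth muscle markers (7 genes, 7 with a row) summed to 24800 TPM in it, against 8252 and 6379 TPM. That list also varied in pregnancy, with 9903 to 14500 TPM in MT and 14780, 14160, 30540 and 31510 TPM in LT. LT replicates 3 and 4 were thus above NP replicate 1. Where leaving out NP replicate 1 moved a called value of a member by over 1.5 times, or changed its call, the value without it is given below.

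Of the 46 members 22 were tested, 8 serpins, 5 SPINK genes, 4 WFDC genes, 3 kallikreins and both cystatins. Since a member could pass through 1 stage where it was high, these 22 are not a sample of all members. Of the 24 others, 8 had no read in any animal: SERPINA5, SERPINA6, SERPINA7, SERPINA10, SERPIND1, SPINK4, WFDC9 and WFDC13. The remaining 16 had at least 1 read, and their highest level in any animal was 4.43 TPM, for SERPINA9 in NP replicate 1. Several low members had most of their reads in NP. SERPINB13 had 10 to 30 reads in the NP animals, none in MT and 0 to 1 in LT. KLK12 had 5 to 7 reads in NP, 0 to 1 in MT and 0 to 1 in LT. KLK13 had 7 to 62, 0 to 3 and 3 to 10 reads. These genes were not tested.

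**Figure D1:**
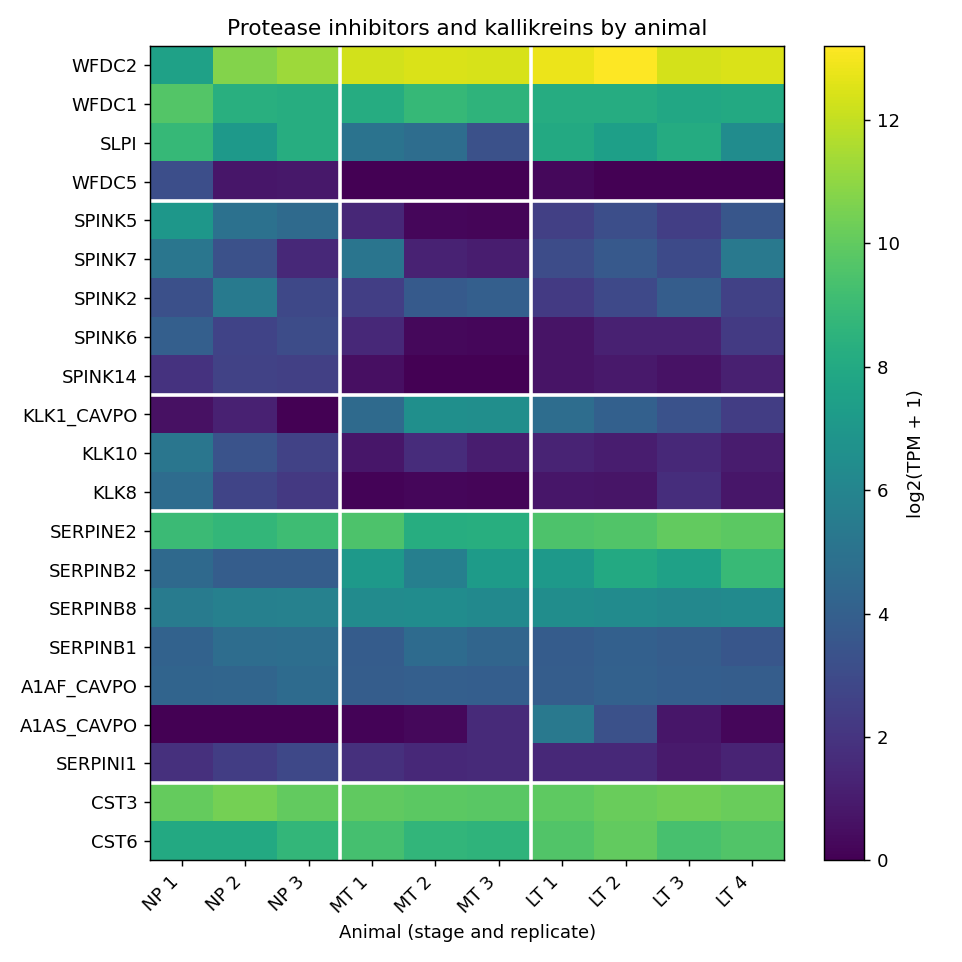
Level of the tested members, 1 of them not shown, in each of the 10 animals, as log2(TPM + 1) in color, with families divided by horizontal and stages by vertical white lines. WFDC2 is the brightest row in MT and LT, while SPINK5, SPINK6, SPINK14, KLK10 and KLK8 are brightest in NP.

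WFDC2 was the most abundant member in all MT and LT animals and made up most of the rise in the summed level. The summed level of the 46 members was 3683, 4475 and 5236 TPM in NP, 8063, 8009 and 7842 TPM in MT, and 10590, 13280, 9083 and 9437 TPM in LT. Every pregnant animal was thus above every NP animal. WFDC2 made up 4.99%, 37.9% and 46.3% of that sum in the NP animals, between 62.5% and 69.6% in MT and between 57.3% and 70.7% in LT. Without WFDC2 the sum was 2779 to 3499 TPM (NP), 2382 to 3020 TPM (MT) and 3370 to 3891 TPM (LT), and NP overlapped both MT and LT.

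**Figure D2:**
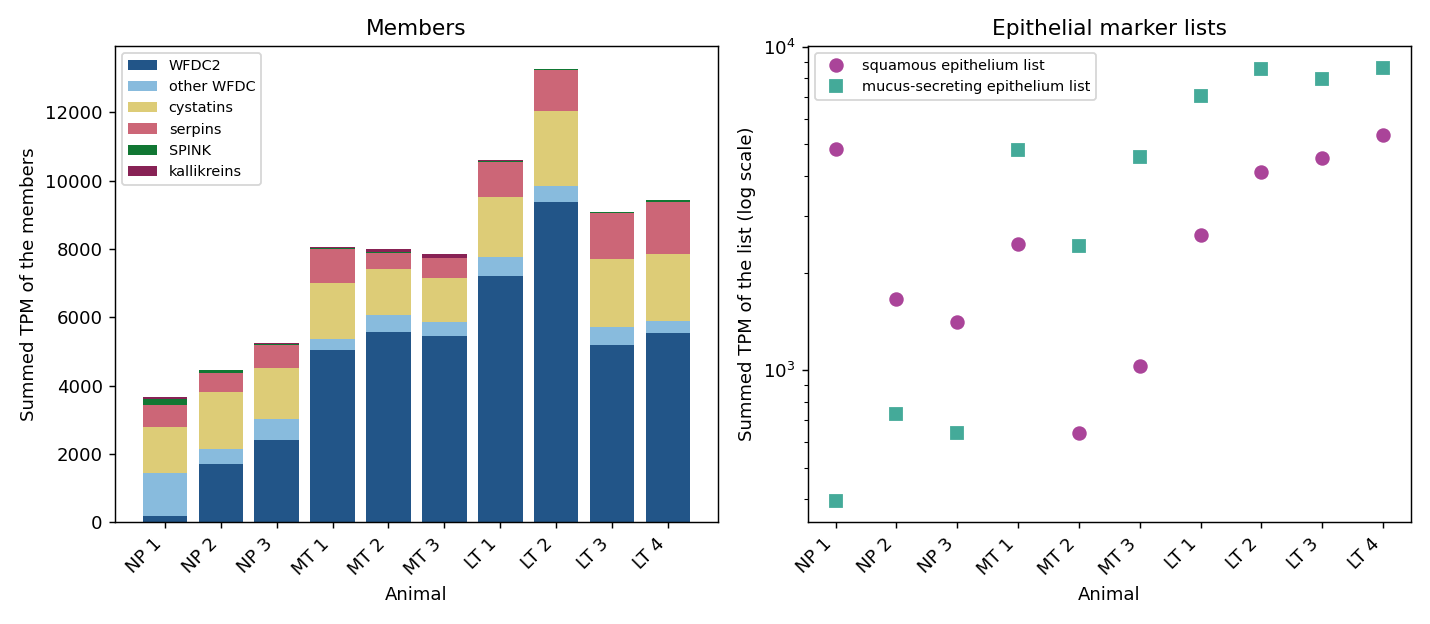
Left, summed TPM of the 46 members in each animal, stacked by family with WFDC2 on its own; right, summed TPM of the squamous and mucus-secreting epithelium marker lists in the same animals on a log scale. WFDC2 grows from 4.99% of the stack in NP replicate 1 to 70.7% in LT replicate 2, and NP replicate 1 has the lowest mucus list and, within NP, the highest squamous list.

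From NP to MT 4 of the 22 tested members rose (18.2%, against 6.27% of all genes tested) and 7 fell (31.8%, against 12.2%). KLK1_CAVPO, SERPINB2, WFDC2 and SERPINB8 rose. SPINK5, SLPI, KLK8, SPINK6, KLK10, SPINK14 and A1AF_CAVPO fell. No overlap between NP and MT was seen in 14 members (63.6%, against 34.9%). The tested members had a median log2 fold change of -0.36. With median-ratio scaling, which sets the typical gene to no change, 4 members rose and 6 fell, against 10.9% and 7.15% of all genes.

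From MT to LT 4 members rose (18.2%, against 6.73%), namely SLPI, SPINK5, SERPINE2 and CST6. Only KLK1_CAVPO fell, 1 of 22 (4.55%, against 22.7%). The animals did not overlap in 7 members (31.8%, against 46.3%), and the median was 0.29. With median-ratio scaling 6 rose and 1 fell, against 14.6% and 14.8% of all genes. The count of 5 depended on single animals. It was 1 without MT replicate 2 and 1 without MT replicate 3, with only SLPI left both times, 3 without LT replicate 3, 3 without LT replicate 4 and 8 without NP replicate 1. The share of all genes called moved with it. With all animals 22.7% of the members and 29.4% of all genes were called, against 4.55% and 15.4% without MT replicate 2, 4.55% and 21.2% without MT replicate 3, and 36.4% and 42.1% without NP replicate 1. The share of members was below that of all genes in each of these fits, but not in all settings. It was above it with median-ratio scaling (31.8%, against 29.4%), edgeR (31.8%, against 29%) and DESeq2 (40.9%, against 36.1%). Without LT replicate 1 the 2 shares were near each other (27.3%, against 27.1%).

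From NP to LT 6 members rose (27.3%, against 11.2%) and 9 fell (40.9%, against 41.9%). SERPINB2, KLK1_CAVPO, WFDC2, CST6, SERPINE2 and SERPINB8 rose. SPINK5, KLK10, KLK8, SPINK6, WFDC5, SPINK14, SERPINI1, SERPINB1 and A1AF_CAVPO fell. The share that fell was near that of all genes. With median-ratio scaling 6 rose and 7 fell, against 26.3% and 23.4% of all genes, so the share that rose was then near that of all genes. The animals did not overlap in 17 members (77.3%, against 52.4%), and the median was -0.50. The 3 comparisons share animals, so their counts are not independent. In all, 16 members were called in at least 1 comparison and 6 in none, among them A1AS_CAVPO, CST3, SPINK2, SPINK7 and WFDC1.

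**Figure D3:**
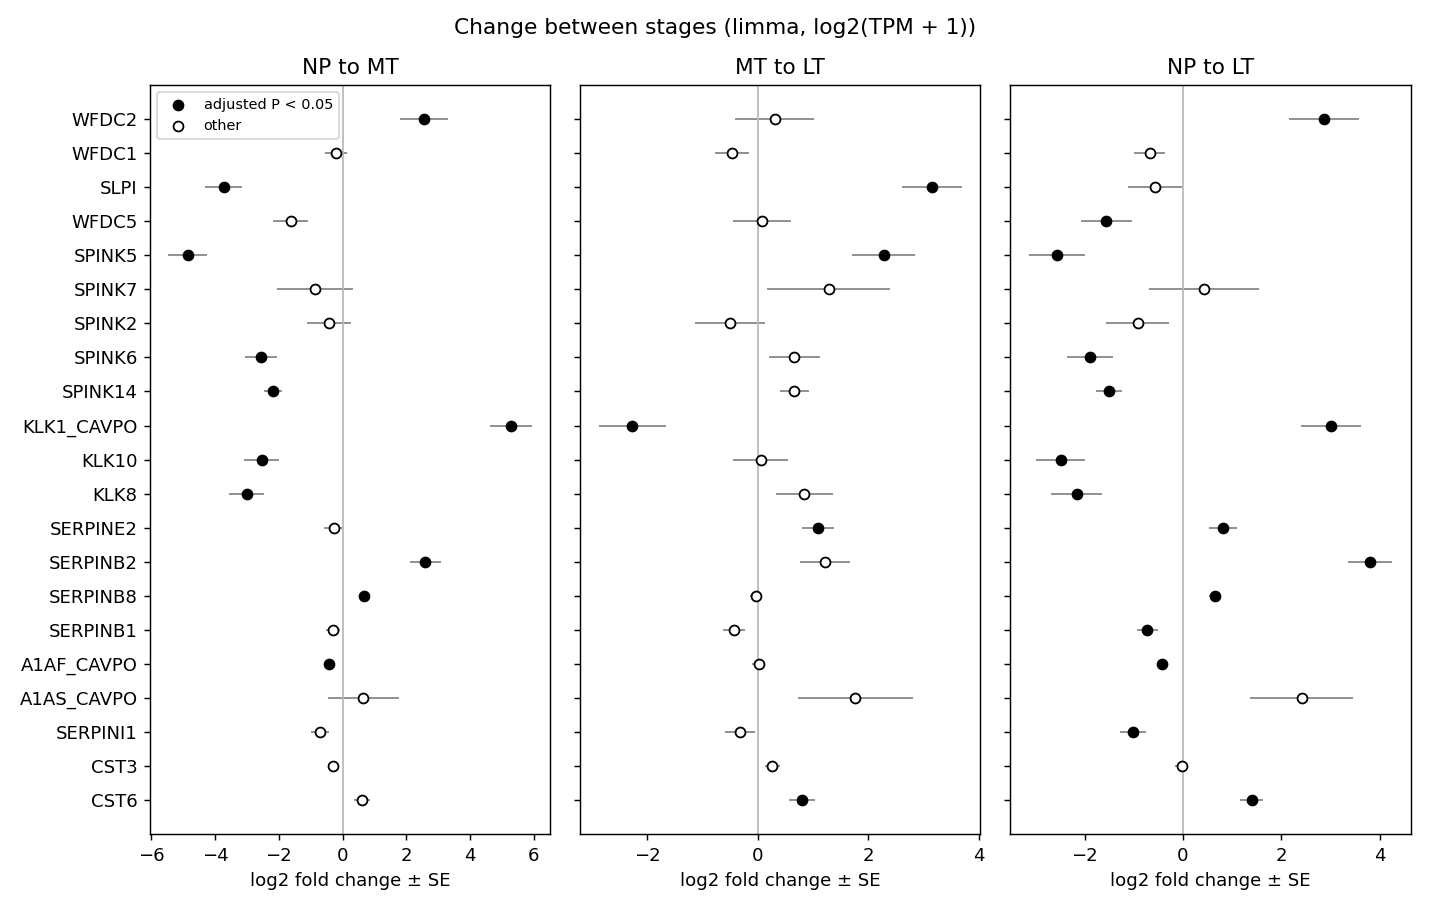
Log2 fold change ± SE of the tested members, 1 of them not shown, in the 3 comparisons, on the log2(TPM + 1) scale of the limma fit, with filled points at an adjusted P under 0.05. The horizontal axes differ between panels. From NP to MT the filled points lie on both sides, 4 above 0 and 7 below, whereas KLK1_CAVPO is the only filled point below 0 from MT to LT.

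Among the WFDC inhibitors WFDC2, a secreted protein of glandular epithelium also known as HE4, was measured at 184, 1697 and 2425 TPM in NP. It was at 5043, 5574 and 5460 TPM in MT and at 7224, 9386, 5204 and 5547 TPM in LT. The lowest pregnant animal was thus more than 2 times the highest NP animal, and MT and LT overlapped. Among all 25028 genes WFDC2 ranked 758, 62 and 40 in the NP animals, 16 to 19 in MT and 5 to 19 in LT.

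The stage means of WFDC2 were 1435 ± 1143 (SD, n = 3), 5359 ± 280 (n = 3) and 6840 ± 1913 TPM (n = 4). The mean was 3.73-fold higher in MT than in NP (log2 fold change 2.55 ± 0.77 SE, adjusted P = 0.0442) and 4.77-fold higher in LT than in NP (2.87 ± 0.72, adjusted P = 0.00770). Between MT and LT it differed by 0.31 (adjusted P = 0.769). Without NP replicate 1 the rises were smaller and their spread narrower, 1.40 to MT (adjusted P = 0.00603) and 1.71 to LT (adjusted P = 0.000450). They were larger without NP replicate 3, at 3.26 (adjusted P = 0.0213) and 3.57 (adjusted P = 0.00402). The call from NP to MT was lost in 13 of the other settings, with adjusted P up to 0.120, among them edgeR on the counts and every omission of an MT or LT animal.

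The mucus-secreting epithelium list rose from NP to MT as WFDC2 did, and was higher still in LT. Its sum ranged over 395 to 731 TPM (NP), 2429 to 4812 TPM (MT) and 7062 to 8630 TPM (LT), and 6 of its 7 tested genes rose from NP to MT and from NP to LT, none falling. The other tested gene, FOXA1, had means of 4.23, 0.223 and 0.762 TPM. Its changes from NP, -1.70 to MT (adjusted P = 0.0626) and -1.20 to LT (adjusted P = 0.0808), were not called. Over the fits that leave out 1 animal, 4 to 6 genes rose from NP to MT, fewest without MT replicate 1 or MT replicate 3. Without NP replicate 3, 1 gene fell from NP to MT and 1 from NP to LT. In LT 78.6% to 87.6% of the sum was AGR2, which takes part in mucin folding, and without it the list held 1179 to 1970 TPM in MT and 1071 to 1533 TPM in LT. TFF1 had no read in any animal, while MUC5B, a gel-forming mucin, had means of 75.8, 730 and 340 TPM in NP, MT and LT. The part of this list in the change of WFDC2 was not tested.

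SLPI, an inhibitor of neutrophil elastase and cathepsin G in mucosal secretions, fell to MT and was higher again in LT. Its level was 458, 140 and 302 TPM in NP, 31.1, 25.8 and 8.80 TPM in MT, and 255, 176, 281 and 84.7 TPM in LT. All MT animals lay below all NP and LT animals, while NP and LT overlapped. The mean was 300 ± 159 TPM in NP and 21.9 ± 11.6 TPM in MT, 13.7-fold lower (-3.73 ± 0.58 on the log2 scale, adjusted P = 0.00297). It then rose 9.09-fold to 199 ± 88.4 TPM in LT (3.16 ± 0.55, adjusted P = 0.00419). Both calls held in all alternative settings, and without NP replicate 1 the fall was -3.35. Between NP and LT the log2 fold change was -0.57 (adjusted P = 0.400).

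WFDC1, a secreted inhibitor-like protein known from smooth muscle and stroma, passed the test in no comparison. It was measured at 806, 320 and 295 TPM in NP, 283, 457 and 382 TPM in MT, and 283, 282, 243 and 254 TPM in LT. NP replicate 1 stood high and NP and MT overlapped, while every LT animal was below every NP and MT animal. The gap between MT and LT was narrow, with 282.8 TPM in the highest LT animal and 283.4 TPM in the lowest MT animal. WFDC1 differed by -0.47 between MT and LT (adjusted P = 0.271), and this was called without NP replicate 1 (adjusted P = 0.0313) and in the fit of MT and LT alone. Between NP and LT it differed by -0.68 (adjusted P = 0.0910), by -0.21 without NP replicate 1 (adjusted P = 0.292), and was called without NP replicate 3 (adjusted P = 0.0411).

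WFDC5, an inhibitor of stratified epithelium, was near the limit of detection. It had 8.13, 0.771 and 0.824 TPM in NP, no read in MT, and 0.217 TPM in LT replicate 1, with no read in the other LT animals. The 3 NP values came from 5 to 72 reads, and NP replicate 1 held most of them. Set against a floor of 3 reads per library, the NP mean was at least 7.50-fold higher than MT, and at least 1.85-fold higher without NP replicate 1. This difference was not called (adjusted P = 0.0694), but square-root TPM, edgeR and DESeq2 called it. The fall from NP to LT was called (log2 fold change -1.56 ± 0.52, adjusted P = 0.0299) and was -0.78 without NP replicate 1 (adjusted P = 0.0390). It was lost without LT replicate 2, 3 or 4, in the fit of NP and LT alone and with a replicate block (adjusted P up to 0.0617).

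The SPINK inhibitors of kallikreins were high in estrus and low in pregnancy. SPINK5, also called LEKTI, was at 126, 29.1 and 22.2 TPM in NP, 1.78, 0.176 and 0.144 TPM in MT, and 4.69, 7.87, 4.49 and 10.6 TPM in LT. The 3 stages did not overlap, with NP highest, LT between and MT lowest. The mean was 84.7-fold lower in MT than in NP (log2 fold change -4.85 ± 0.61, adjusted P = 0.00119), and 9.91-fold higher in LT than in MT (2.28 ± 0.57, adjusted P = 0.0163). It was still 8.55-fold lower in LT than in NP (-2.57 ± 0.57, adjusted P = 0.00430). Without NP replicate 1 the fall to MT was -4.09 (36.7-fold, adjusted P = 0.000790) and that to LT -1.81 (3.71-fold). MT replicate 1 carried the MT mean, and without it the fall from NP to MT was 370.3-fold and the rise from MT to LT 43.3-fold, with only 0.160 TPM left in MT. These ratios are therefore uncertain in size, and the MT value of 0.144 to 0.176 TPM rests on few reads. The rise from MT to LT was not called without MT replicate 2, without MT replicate 3 or on square-root TPM, with adjusted P up to 0.290.

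SPINK6, a Kazal inhibitor selective for kallikreins, followed with fewer reads. It had 14.96, 5.22 and 7.47 TPM in NP, 1.87, 0.232 and 0.170 TPM in MT, and 0.640, 1.34, 1.34 and 3.69 TPM in LT. Every NP animal was above every pregnant animal, while MT and LT overlapped. It fell from NP to MT (log2 fold change -2.56 ± 0.49, adjusted P = 0.00772) and from NP to LT (-1.89 ± 0.46, adjusted P = 0.00682). The same falls were -2.18 and -1.51 without NP replicate 1. The change from MT to LT, 0.67, was not called (adjusted P = 0.293).

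SPINK14 rested on very few reads, 9 to 12 per NP animal, 0 to 1 in MT and 2 to 4 in LT. Its levels were 2.83, 5.15 and 4.59 TPM in NP, 0.443, 0 and 0 TPM in MT, and 0.605, 0.847, 0.562 and 1.22 TPM in LT. The stages did not overlap. The falls from NP to MT (log2 fold change -2.17 ± 0.29, adjusted P = 0.00137) and from NP to LT (-1.51 ± 0.27, adjusted P = 0.00134) were called in all settings. The change from MT to LT, 0.66, was not called (adjusted P = 0.0848), but was without NP replicate 1 (adjusted P = 0.0454).

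SPINK7, an inhibitor of squamous epithelium, varied more within stages than between them, with ranges of 1.88 to 35.9 TPM (NP), 1.06 to 34.5 TPM (MT) and 6.92 to 39.4 TPM (LT). SPINK2, known from the male germ line as an acrosin inhibitor, had 6.25 to 41.7, 4.52 to 15.2 and 3.71 to 14.1 TPM. Neither was called. In each stage the animal with the highest SPINK7, SPINK5 and SPINK6 was the same, NP replicate 1, MT replicate 1 and LT replicate 4. Those animals also had the highest summed squamous list of their stage, 4826, 2454 and 5343 TPM.

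The sum of the squamous list did not follow the fall of SPINK5 from NP to LT, while the genes of the list went both ways. KRT14 and PERP had the highest stage means of the list. These were 1571 and 532 TPM in NP, 548 and 581 TPM in MT, and 2237 and 1312 TPM in LT. Its sum ranged over 1411 to 4826 TPM (NP), 642 to 2454 TPM (MT) and 2615 to 5343 TPM (LT), with none of its rows at 0 reads, so that NP overlapped both MT and LT while LT lay above MT. Of its 10 tested genes none rose and 2 fell from NP to MT, 1 rose and none fell from MT to LT, and 2 rose and 2 fell from NP to LT. The 2 that rose from NP to LT were KRT1 (3.59, adjusted P = 0.00535) and PERP (1.42, adjusted P = 0.0150). The 2 that fell with SPINK5 were IVL (-4.57, adjusted P = 0.000378) and TGM1 (-1.93, adjusted P = 0.0447). With NP replicate 1 left out, 2 fell from NP to MT, 6 rose and 1 fell from MT to LT, and 5 rose and 1 fell from NP to LT. The rises from MT to LT numbered 0 without MT replicate 2 or MT replicate 3 and 6 without MT replicate 1. The median log2 fold change of the list stood at -0.88 (NP to MT), 1.60 (MT to LT) and 0.71 (NP to LT), and at 0.04, 1.60 and 1.45 when NP replicate 1 was left out. The part of this epithelium in the SPINK and kallikrein values was not tested.

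KLK8 and KLK10, kallikreins of stratified epithelium, fell as SPINK5 and SPINK6 did. KLK8 was at 24.2, 5.47 and 3.64 TPM in NP, 0.0981, 0.170 and 0.143 TPM in MT, and 0.754, 0.689, 2.34 and 0.758 TPM in LT. The stages did not overlap, with NP highest and MT lowest, and the MT values came from 4 to 8 reads each. It fell from NP to MT (log2 fold change -3.00 ± 0.55, adjusted P = 0.00617) and from NP to LT (-2.16 ± 0.51, adjusted P = 0.00607). Without NP replicate 1 these were -2.27 (adjusted P = 0.00289) and -1.42 (adjusted P = 0.00456). The difference between MT and LT, 0.85, was not called (adjusted P = 0.233), but was without NP replicate 1 (adjusted P = 0.0402), in the fit of MT and LT alone (adjusted P = 0.0434) and with a pseudocount of 0.1 TPM (2.21, adjusted P = 0.0328). On the counts it was 3.21 with edgeR (adjusted P = 0.0356) and 3.23 with DESeq2 (adjusted P = 0.000274).

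KLK10 had 34.6, 9.20 and 5.13 TPM in NP, 0.724, 2.22 and 1.06 TPM in MT, and 1.49, 1.11, 1.84 and 0.995 TPM in LT. Every NP animal exceeded every pregnant animal, and MT and LT overlapped. The mean was 12.2-fold lower in MT than in NP (-2.54 ± 0.54, adjusted P = 0.0118) and 12.0-fold lower in LT than in NP (-2.48 ± 0.50, adjusted P = 0.00270). Without NP replicate 1 the fall to MT was -1.81 (5.37-fold, adjusted P = 0.00579) and that to LT -1.76 (5.28-fold). In the fit of the NP and MT animals alone it was not called (adjusted P = 0.0535).

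KLK1_CAVPO, the tissue kallikrein, ran against the other kallikreins. It is listed on 2 rows, and the values are those of ENSCPOG00000026955, since the other row (ENSCPOG00000005638) had 8 reads in all animals together. The level was 0.490, 1.34 and 0 TPM in NP, 22.9, 95.1 and 89.6 TPM in MT, and 25.2, 15.5, 8.85 and 4.36 TPM in LT. All pregnant animals were above all NP animals, and LT replicate 1 overlapped MT replicate 1. Reads ranged from 0 to 10 in NP, 166 to 892 in MT and 46 to 267 in LT.

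The KLK1_CAVPO level rose from NP to MT by 5.29 ± 0.65 on the log2 scale (adjusted P = 0.00115), the largest rise of any tested member in that comparison. Its mean was then 5.14-fold lower in LT than in MT (-2.27 ± 0.61, adjusted P = 0.0215), and from NP to LT it rose by 3.02 ± 0.61 (adjusted P = 0.00269), a call lost on square-root TPM (adjusted P = 0.0534). Without MT replicate 1, the lowest of its stage, these changes to MT and from MT to LT were 5.94 (adjusted P = 0.00105) and -2.92 (adjusted P = 0.0102). The fall from MT to LT was not called without any 1 of MT replicates 2 and 3 and LT replicates 3 and 4, nor with a pseudocount of 0.1 TPM, with adjusted P up to 0.0913. Reads of near-identical kallikrein copies may be split or lost in such counts.

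**Figure D4:**
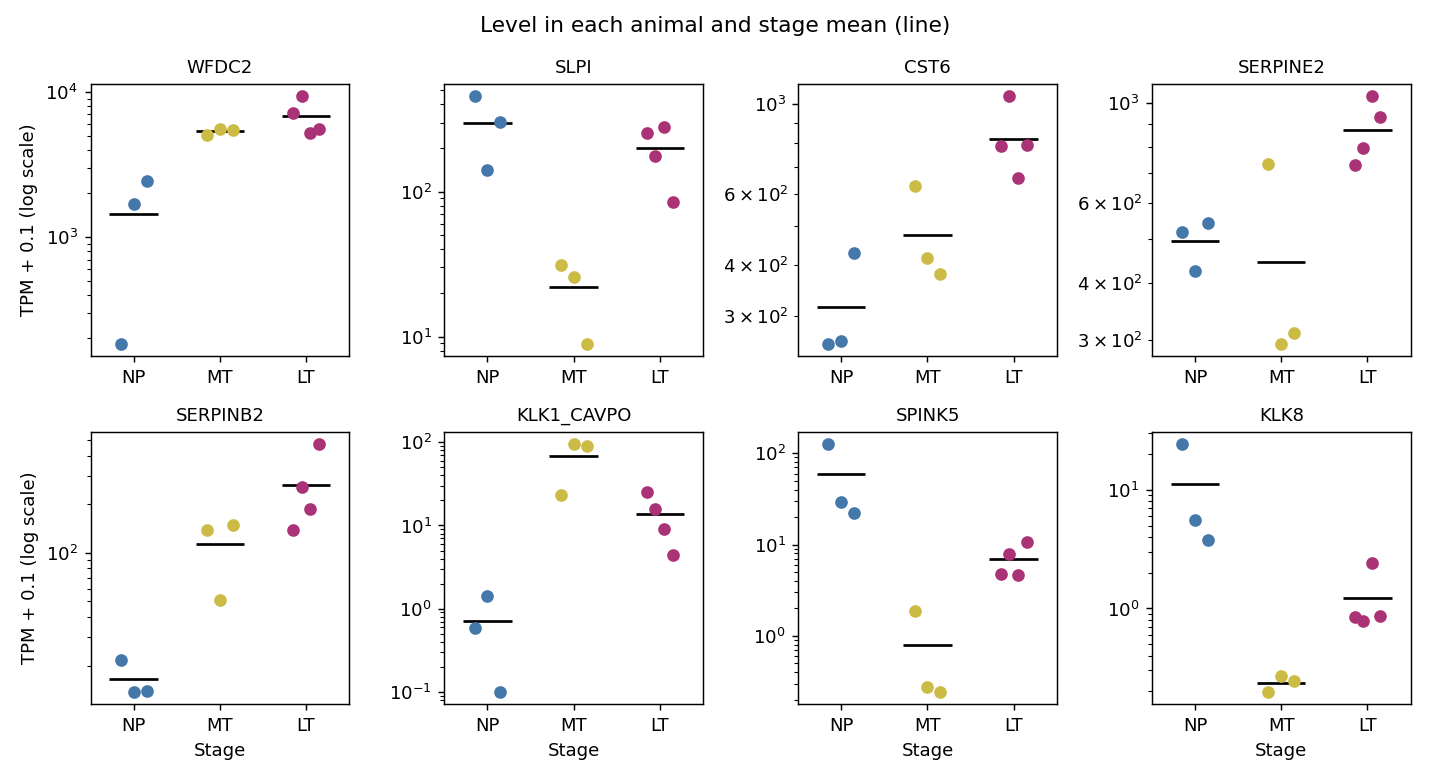
Level of 8 members in each animal (points) and the stage mean (line), as TPM + 0.1 on a log axis, which differs between panels. WFDC2 and SERPINB2 lie higher in pregnancy than in NP, SLPI is lowest in MT, KLK1_CAVPO is highest on average in MT, and SPINK5 and KLK8 are highest in NP.

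Of the serpins called higher in pregnancy than in NP, SERPINB2 had the largest log2 fold change. It encodes plasminogen activator inhibitor 2, which blocks urokinase. Its level was 21.6, 13.7 and 13.9 TPM in NP, 138, 50.8 and 150 TPM in MT, and 138, 257, 188 and 472 TPM in LT. All pregnant animals were above all NP animals, and MT and LT overlapped. The mean rose 6.88-fold from NP to MT (log2 fold change 2.59 ± 0.48, adjusted P = 0.00677) and 16.1-fold from NP to LT (3.81 ± 0.45, adjusted P = 0.000238). The first call was lost on square-root TPM (adjusted P = 0.0735). The change from MT to LT was 1.21 ± 0.45 (adjusted P = 0.0682). It was 0.72 without MT replicate 2 (adjusted P = 0.258), and it was called without LT replicate 1 (1.47, adjusted P = 0.0396) and with DESeq2 (1.40, adjusted P = 0.0115).

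A leukocyte list (17 genes, 15 with a row, none at 0 reads) had sums of 4552 to 8406 TPM (NP), 9044 to 13390 TPM (MT) and 15010 to 19360 TPM (LT). Between 96.6% and 99.2% of these sums came from S100A8 and S100A9, which are made by neutrophils and by stratified epithelium. Of its 11 tested genes 1 rose from NP to MT, 4 rose from MT to LT, and 4 rose and 2 fell from NP to LT. When NP replicate 1 was left out, 1 rose and 4 fell from NP to MT, 5 rose from MT to LT, and 4 rose and 4 fell from NP to LT. Without any 1 of the MT animals 2 rose from MT to LT, and without NP replicate 2 none fell from NP to LT. The general leukocyte marker PTPRC fell from NP to LT, with means of 15.4, 9.62 and 6.89 TPM (-0.98, adjusted P = 0.0155), as did ITGAX (-1.24, adjusted P = 0.0169). The myeloid markers CD14 (1.41, adjusted P = 0.00163) and CSF3R (1.97, adjusted P = 0.00172) rose from NP to LT. Its part in the levels of SERPINB2 and SLPI was not tested.

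SERPINB8, an intracellular serpin that inhibits furin, was measured at 43.6, 52.8 and 54.9 TPM in NP, 80.8, 83.9 and 76.9 TPM in MT, and 87.6, 80.6, 69.4 and 79.1 TPM in LT. No pregnant animal overlapped NP, while MT and LT did overlap. The mean rose 1.60-fold from NP to MT (0.67 ± 0.11, adjusted P = 0.00412) and was 1.57-fold higher in LT than in NP (0.64 ± 0.11, adjusted P = 0.000892). Both calls held in all settings. The change from MT to LT was -0.03 (adjusted P = 0.866).

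SERPINE2, protease nexin-1, an inhibitor of thrombin and plasminogen activators, was the most abundant serpin. It was at 517, 424 and 542 TPM in NP, 732, 294 and 310 TPM in MT, and 729, 796, 1036 and 931 TPM in LT. LT lay above NP in every animal, but MT replicate 1 stood well above the other MT animals and within the LT range. The rise from MT to LT was 1.09 ± 0.29 (adjusted P = 0.0192), or 1.96-fold in the mean, and it was not called without MT replicate 2, MT replicate 3 or LT replicate 3 (adjusted P up to 0.0828). The rise from NP to LT, 0.81 ± 0.29 (adjusted P = 0.0351), was lost on omission of any of the NP animals or of LT replicates 2, 3 or 4, with adjusted P up to 0.117. Without NP replicate 1 this rise was 0.85 (adjusted P = 0.0548). MT differed from NP by -0.28 (adjusted P = 0.544), and without MT replicate 1 it was -0.70 and called (adjusted P = 0.0233).

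A1AF_CAVPO and A1AS_CAVPO are closely related plasma antiproteinases of the alpha-1-antitrypsin type, so reads may have been split between them. A1AF_CAVPO was at 18.3, 18.6 and 23.4 TPM in NP, 14.0, 15.1 and 14.4 TPM in MT, and 14.1, 16.4, 14.6 and 13.6 TPM in LT. All NP animals were above all pregnant ones. The fall was small, -0.44 ± 0.12 from NP to MT (adjusted P = 0.0298) and -0.42 ± 0.11 from NP to LT (adjusted P = 0.00989). Both calls were lost with median-ratio scaling and with edgeR, and over all settings the adjusted P reached 0.0992 and 0.507.

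A1AS_CAVPO was nearly absent in NP, at 0.0328, 0 and 0 TPM, and had 0.0925, 0.229 and 1.95 TPM in MT. In LT it had 39.8, 8.82, 0.763 and 0.190 TPM, from 6 to 1259 reads. The LT animals thus spanned a wide range, 1 of them accounting for most of the mean of 12.4 ± 18.7 TPM. No NP animal overlapped a pregnant one. With all 10 animals limma on log2(TPM + 1) called no comparison. The largest change was 2.41 ± 1.04 from NP to LT (adjusted P = 0.0745). Without LT replicate 1, which held most of the reads, it was 1.44 (adjusted P = 0.132). It was called without LT replicate 3 (adjusted P = 0.0472), without LT replicate 4 (adjusted P = 0.0246), with a pseudocount of 0.1 TPM (adjusted P = 0.0265) and on the counts by edgeR (adjusted P = 0.0139) and DESeq2 (adjusted P = 7.22e-06). DESeq2 also called it from NP to MT (adjusted P = 0.0313) and from MT to LT (adjusted P = 0.0449).

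A hepatocyte list (11 genes, 8 with a row) had sums of 14.1 to 68.4 TPM (NP), 72.6 to 111 TPM (MT) and 86.0 to 214 TPM (LT). TTR, APOA2 and FGB had no read in any animal. Most of the sum was FGG, a fibrinogen chain. The list was highest in LT replicate 3, at 214 TPM, where A1AS_CAVPO was 0.763 TPM, and its part in the antiproteinase values was not tested.

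SERPINB1, an inhibitor of neutrophil proteases, had means of 22.8 ± 5.13, 18.5 ± 4.77 and 13.3 ± 2.05 TPM and fell from NP to LT (-0.72 ± 0.21, adjusted P = 0.0149). SERPINI1, neuroserpin, an inhibitor of tissue plasminogen activator, had 4.35 ± 1.94, 2.17 ± 0.36 and 1.57 ± 0.45 TPM and fell from NP to LT (-1.01 ± 0.27, adjusted P = 0.0101). The fall of SERPINI1 was lost with a replicate block (adjusted P = 0.0513). The change of SERPINI1 from NP to MT, -0.70, was not called, but was without NP replicate 1 (-0.97, adjusted P = 0.0194). The fall of SERPINB1 was lost with median-ratio scaling, edgeR and DESeq2 and without NP replicate 2 or 3 (adjusted P up to 0.117).

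The cystatins were both abundant. CST6, cystatin E/M, an inhibitor of legumain and cathepsins in epithelia, was at 256, 261 and 430 TPM in NP, 626, 418 and 381 TPM in MT, and 788, 1046, 659 and 790 TPM in LT. LT was above the other stages in every animal, and NP and MT overlapped. The mean was 2.60-fold higher in LT than in NP (1.40 ± 0.24, adjusted P = 0.00104), a call that held in all settings. The rise from MT to LT was 1.73-fold (0.80 ± 0.24, adjusted P = 0.0295) and was not called without MT replicate 2 or 3 or LT replicate 2 or 4 (adjusted P up to 0.106). Between NP and MT it changed by 0.60 ± 0.25 (adjusted P = 0.123). This was called without NP replicate 3 (0.84, adjusted P = 0.0457) and with DESeq2 (0.72, adjusted P = 0.0254).

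CST3, cystatin C, a secreted inhibitor made by most tissues, was measured at 1070, 1390 and 1055 TPM in NP, 1019, 931 and 908 TPM in MT, and 962, 1152, 1314 and 1168 TPM in LT. MT lay below NP in every animal, while LT overlapped both. None of its changes was called, -0.29 from NP to MT (adjusted P = 0.178), 0.26 from MT to LT (adjusted P = 0.157) and -0.03 from NP to LT (adjusted P = 0.886). Its change from MT to LT was called with median-ratio scaling, edgeR and DESeq2.

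The proteases that these inhibitors can meet changed in both directions. Of 52 listed serine proteases and cofactors 39 had a row and 31 were tested. As a background for this and the other lists, 6.27% of all genes tested rose and 12.2% fell from NP to MT. These shares were 6.73% and 22.7% from MT to LT, and 11.2% and 41.9% from NP to LT. Of the 31 tested here 3 rose and 6 fell from NP to MT (median log2 fold change -0.28). From MT to LT 4 rose and 2 fell (0.12), and from NP to LT 6 rose and 7 fell (-0.05). When NP replicate 1 was left out, 4 rose and 9 fell (-0.32), 6 rose and 5 fell (0.12), and 6 rose and 8 fell (-0.01). Over the fits that leave out 1 animal, 0 to 6 rose from MT to LT, none without MT replicate 2 or MT replicate 3, and 1 to 5 fell. From NP to LT 3 to 6 rose, and from NP to MT 3 to 9 fell, fewest without MT replicate 3. The falls from NP to MT were largest for membrane-anchored or epithelial proteases, TMPRSS11D at -5.97 (adjusted P = 0.00116), TMPRSS11B at -4.09 (adjusted P = 0.00951) and PRSS27 at -3.48 (adjusted P = 0.0255). TMPRSS11B then rose from MT to LT (2.30, adjusted P = 0.0486), as did F3, tissue factor (1.49, adjusted P = 0.0485), while PRSS23 fell (-1.22, adjusted P = 0.00281). These values rest on the same animals as the members' values and share the wide spread of NP, where TMPRSS11D had a mean of 130 ± 143 TPM. The 3 falls from NP to MT without NP replicate 1 were -5.07, -3.08 and -2.40, all still called.

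Of 15 listed desmosome and cornified envelope genes, among them substrates of kallikreins and their receptor F2RL1, 11 had a row and 9 were tested. From NP to MT none rose and 2 fell, TGM1 (-3.34, adjusted P = 0.0157) and IVL (-3.33, adjusted P = 0.00864), which build the cornified envelope and are also in the squamous list. Both were still lower in LT than in NP, at -1.93 and -4.57. Without NP replicate 1 their falls to MT were -2.36 and -2.45, both called, and that of TGM1 to LT was -0.94 and not called (adjusted P = 0.131). In LT against MT the desmosomal cadherin DSC2 rose (1.52, adjusted P = 0.0484). It was the 1 gene of the list called between these stages, against 5 higher and 1 lower with NP replicate 1 left out and none without any 1 of NP replicate 2, MT replicates 2 and 3 and LT replicates 2, 3 and 4. The list's median was -0.84, 1.41 and 0.14 in the 3 comparisons, and -0.23, 1.41 and 0.73 when NP replicate 1 was left out.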

How the data were processed

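The data are RNA-seq of poly-A RNA from the vaginal portion of the cervix of 10 guinea pigs (1 × 75 bases, strand-specific). The authors aligned reads to cavPor3 with TopHat2 after CASAVA 1.8.2 and deposited 1 table of counts per Ensembl gene, made with HTSeq 0.5.4p1, and the TPM values that the authors derived from them. The strand setting of the counting is not given in the sources used here. Stages were taken from the sample labels.

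TPM was analysed as log2(TPM + 1) with limma 3.58.1 (trend, two-sided, R 4.3.3), stage as the only term, for the 12645 genes whose mean reached 3 TPM in 1 stage or more, with Benjamini-Hochberg adjustment. The scripts were tested on simulated data. Alternatives were square-root TPM, a pseudocount of 0.1 TPM, no filter, a mean of 1 TPM over all animals, median-ratio scaling, only the 2 stages compared, edgeR 4.0.16 (quasi-likelihood) and DESeq2 1.42.0 on the counts, a replicate block, and leaving out each animal. The members and lists were chosen with earlier results of these data known.

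Values in every animal are given for members called without overlap (up to 6 each way per comparison), the 8 most abundant, and those the rule names singly. Other members are given by ranges or means, and other lists by counts and up to 3 genes each. Counts of 0 used a floor of 3 reads per library, which covers counting error only. No genome or sequence of the authors' build was used here, so no coordinates are given. The mixed-case names Serpinb6, Serpinc1 and Serpinf1 were not taken as members. The values of 1 tested member are not reported here.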

Additional observations from a re-analysis of the deposited data

Results flagged for a closer look

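In a group of 4 animals, 1 animal was taken to be far from the others when its gap to the nearest, divided by the range of the group, was above Dixon's 95% critical value. Of 17 members looked at in LT, KLK8 met this, beside WFDC5, where the measure has no meaning, and chance alone gives about 1 in 20 groups. KLK8 had a value of 0.958, since LT replicate 3 was at 2.34 TPM and the other LT animals reached from 0.689 to 0.758 TPM. WFDC5 had a value of 1.0, since LT replicate 1 was at 0.217 TPM and the others at 0. With 3 animals at 0 any read gives that value, and it rests on 2 reads here.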

How the results depend on the processing

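None of the 31 called changes of tested members reversed its direction in the 20 other settings (19 for WFDC5, which was not tested under the filter on the mean over all animals). The uncalled change of WFDC1 from NP to MT, -0.21, was 0.26 without NP replicate 1. The number of members called from MT to LT, 5, moved to 9 with DESeq2 (40.9%, against 36.1% of all genes) and to 2 with a replicate block (9.09%, against 13.4%). Leaving out 1 animal at a time gave 9 to 12 members from NP to MT (11 with all animals), 1 to 8 from MT to LT and 13 to 15 from NP to LT (15 with all animals). The lowest count from MT to LT was without MT replicate 2 or MT replicate 3, and the highest without NP replicate 1. With a replicate block 9 members were called from NP to MT and 13 from NP to LT, but the replicate numbers do not pair the animals: residuals of same-numbered animals correlated between -0.287 and 0.254, and LT replicate 4 is alone in its block. Median-ratio scaling gave 4 higher and 6 lower from NP to MT, 6 higher and 1 lower from MT to LT, and 6 higher and 7 lower from NP to LT. Depth limits SPINK2, SPINK5, SPINK6, SPINK7, SPINK14, KLK8 and KLK10 in MT, SPINK6 and WFDC5 in LT, and WFDC5, SPINK7, KLK1_CAVPO and A1AS_CAVPO in NP, among others, which rest on 12 reads or fewer in some animals.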

Other observations

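Of 15 listed cathepsins and related cysteine proteases, the targets of cystatins, 12 had a row and 10 were tested. None rose and 1 fell from NP to MT, 1 rose and none fell from MT to LT, and none rose and 2 fell from NP to LT. When NP replicate 1 was left out, 5 fell from NP to MT, 3 rose from MT to LT and 5 fell from NP to LT, while without MT replicate 1 none was called from MT to LT and without NP replicate 3 only 1 fell from NP to LT. CTSL2, a cathepsin L type protease, had 491 ± 125 TPM in NP against 155 ± 13.7 TPM in MT, a change of -1.63 on the log2 scale (adjusted P = 0.000913), and was still lower in LT than in NP (-1.20, adjusted P = 0.000528). CTSZ rose from MT to LT (0.92, adjusted P = 0.0158), and CTSF fell from NP to LT (-0.67, adjusted P = 0.0177).

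Of 32 other protease inhibitors listed, 23 had a row and 13 were tested, of which 1 fell from NP to MT, 2 rose and 1 fell from MT to LT, and 4 fell from NP to LT. Over the fits that leave out 1 animal, 0 to 3 fell from NP to MT, none without MT replicate 3 or NP replicate 3 and 3 without MT replicate 1 or NP replicate 1. From MT to LT 0 to 2 rose, none without any 1 of MT replicates 2 and 3 and LT replicates 2 and 4, and 1 to 2 fell, and from NP to LT 1 to 4 fell, fewest without NP replicate 3. CSTB, cystatin B, an inhibitor of intracellular cathepsins, fell from NP to MT (-0.51, adjusted P = 0.0236) and rose from MT to LT (0.40, adjusted P = 0.0340). RECK, a membrane-anchored inhibitor of matrix metalloproteases, fell from 48.9 ± 2.501 TPM in MT to 23.4 ± 7.51 TPM in LT (-1.08, adjusted P = 0.00455). KNG1, the kininogen that KLK1 cleaves, was at 20.5 ± 9.66, 8.94 ± 4.09 and 8.16 ± 0.66 TPM in NP, MT and LT and fell from NP to LT (-1.10, adjusted P = 0.0229). Without NP replicate 1 that fall was -1.56 (adjusted P = 0.000785), and KNG1 was also called lower in MT than in NP (-1.52, adjusted P = 0.00501).

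Among 3 serpins written in mixed case in the table, Serpinf1, an antiangiogenic serpin that is not a protease inhibitor, rose between NP (147 ± 43.6 TPM) and MT (294 ± 46.7 TPM; 1.03, adjusted P = 0.0210) and was at 287 ± 71.7 TPM in LT. From NP to LT Serpinf1 rose by 0.98 (adjusted P = 0.00691). Serpinb6 had means of 148, 181 and 187 TPM and rose from NP to LT (0.32, adjusted P = 0.0488). Serpinc1, antithrombin, did not exceed 0.0321 TPM in any animal.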
